A study of Marchantia polymorpha with 12 samples.

Results

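The interaction between genotype and wounding was measured in thalli of the liverwort Marchantia polymorpha as the wound response in the line labelled Mperf15ko minus the wound response in the male laboratory accession Tak-1. All 12 of the 12 libraries of the series entered it, since the contrast needs all 4 groups, each with 3 biological replicates of 12 plants. The groups were intact Tak-1 thalli, Tak-1 thalli 1 h after wounding of the blades, intact Mperf15ko thalli, and Mperf15ko thalli collected 1 h after wounding. All thalli were 14 days old and had been grown from gemmae on agar with half-strength Gamborg B5 medium. The lesion carried by Mperf15ko is not described in the labels, which also do not say how many independent lines were used, no second allele or complemented line is among the samples, and whole thalli were collected, so that fewer cells of a type and less RNA per cell cannot be told apart.

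MpERF15 belongs to the AP2/ERF family of plant transcription factors, many of which are induced by stress and wounding. Wounding of plants sets off the synthesis of oxylipins: lipoxygenases oxygenate polyunsaturated fatty acids, CYP74 enzymes and others convert the hydroperoxides, and in Marchantia the product dinor-OPDA is perceived by the receptor MpCOI1, which removes the repressor MpJAZ. A gene can show an interaction because its level differs between the genotypes before wounding, because it differs after wounding, or because the sign of the difference turns over. The 4 group levels were therefore read side by side for each gene.

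Libraries held 17.2 to 30.4 M estimated reads, and 14246 genes were tested. Replicates of a group correlated at 0.982 or more in log2 CPM, the reads of a gene scaled to library size. The first and second principal components held 55.2% and 24.2% of the variance. Tak-1 wounded replicate 1 stood apart, with its top 10 genes taking 10.9% of the reads where the others had 5.50% to 8.60%. CPM values are scaled with TMM factors and given in the order of replicates 1 to 3, log2 values are fitted fold changes from edgeR, and a gene is called where its Benjamini-Hochberg adjusted p over all tested genes is under 0.05. None of the 10 tested tissue markers, among them the gemma cup gene MpGCAM1 and the oil body gene MpSYP12B, was called by the interaction in edgeR. Nor was any of the 61 tested genes of the male V chromosome, against 1.07% of all tested genes. At that share, sets of this size may hold no call, so this is no check of tissue make-up. Markers of rhizoids (MpRSL1) and of the germ line (MpBNB) had no ID here. MpRBCS, the small subunit of Rubisco and a marker of photosynthetic tissue, averaged 259.7 CPM in Tak-1 control, 303 in Tak-1 wounded, 192 in Mperf15ko control and 227 in Mperf15ko wounded thalli.

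MpERF15 (Mp7g09350), which gives the mutant its label, had reads in all 12 libraries. In Tak-1 it had 59, 51 and 54 estimated reads in control thalli and 458, 1029 and 1087 in wounded thalli. In Mperf15ko it had 60, 92 and 46 reads in control thalli and 383, 531 and 911 in wounded thalli. The gene rose after wounding in both genotypes, and the ranges of the genotypes overlapped in wounded and in control thalli. Its interaction value was -0.70 with a 95% interval of -1.84 to 0.43 (adjusted p = 0.67). Reads counted over the whole transcript thus do not check the genotype label, and each genotype direction given here rests on that label.

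The test of a difference between the wound responses called 152 genes in edgeR, which is 1.07% of those tested, with 57 higher (0.400%) and 95 lower (0.667%) in Mperf15ko, where lower means a wound response that is less positive or more negative than in Tak-1. The number depended on the tool and on single libraries: DESeq2 called 472 of the 12585 genes it gave an adjusted p, and the edgeR fits that each left out 1 library called between 61 (without Tak-1 wounded replicate 2) and 324 (without Mperf15ko control replicate 1). At an unadjusted p under 0.05 there were 1714 genes in edgeR, 12.0% of those tested. For comparison, the wound response itself called 46.2% of genes in Tak-1 and 43.6% in Mperf15ko, and the genotype difference called 28.1% in control and 23.5% in wounded thalli. The contrast between contrasts had the larger error, with a median standard error of 0.183 on the log2 scale against 0.129 for the Tak-1 wound response alone. An interaction of at least 2-fold was reached by 55 of the called genes, 27 higher and 28 lower. The median interaction over all tested genes was 0.024.

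The genes called were mostly genes that wounding raised. The mean of both wound responses called 58.2% of all tested genes, 4087 up and 4199 down. Of the raised genes 119 were called by the interaction (2.91%), and of the lowered genes 16 (0.381%). Induction was smaller in Mperf15ko for 77 genes and larger for 42. Repression was larger in Mperf15ko for 12 genes and smaller for 4, and 17 genes had no shared direction. The wound response passed in both genotypes with the same sign for 94 genes, in Tak-1 alone for 31 and in Mperf15ko alone for 21, and with opposite signs for 6. The plot of wound responses shows the 77 weaker inductions below the diagonal and the 42 stronger ones above it.

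**Figure D1:**
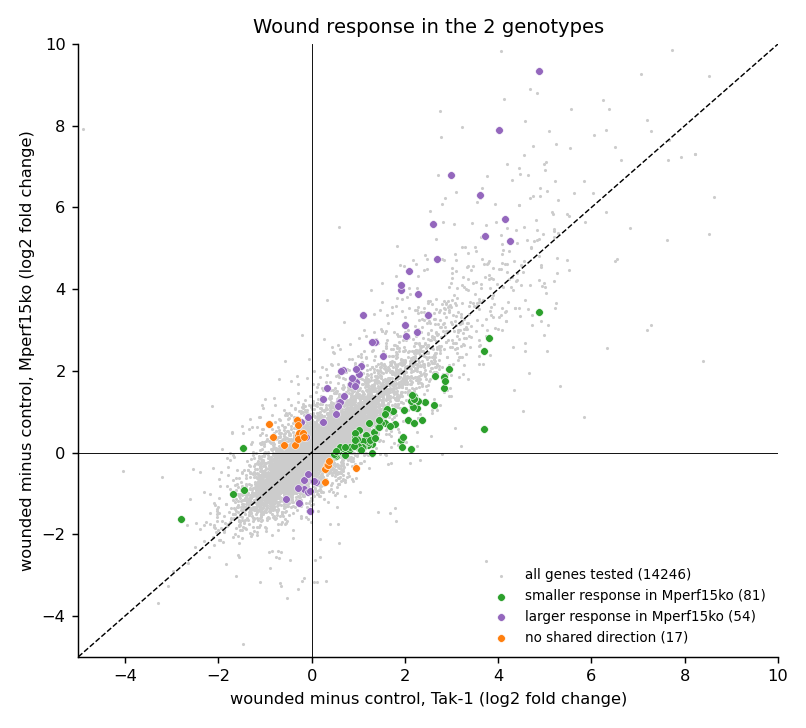
Wound response (wounded minus control, log2 fold change) in Mperf15ko against that in Tak-1, with 1 point per tested gene and the called genes coloured by whether the response was smaller (81), larger (54) or without a shared direction (17) in Mperf15ko; the dashed line marks equal responses and 10 grey genes lie outside the axes. Most coloured points lie at positive values in both genotypes, where 119 of the called genes were raised by wounding.

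The genotype difference behind these interactions was larger in control thalli for 58 genes and larger in wounded thalli for 37, and for 57 genes neither was resolved as the larger. The size of the genotype difference in control and in wounded thalli was compared through the mean of both differences, a contrast that is orthogonal to the interaction in this balanced design and that called 41.4% of all tested genes. The 3 counts come from that contrast. Counted by the single contrasts, Mperf15ko differed from Tak-1 in control thalli but not in wounded thalli for 53 genes and in wounded thalli but not in control thalli for 41. It differed in both with the same sign for 17, in both with opposite signs for 41, and in at least 1 of the conditions for every one of the 152. These single contrasts are part of the interaction that chose the genes, so the shares describe those genes and are no separate test. Across all tested genes the genotype differences in control and wounded thalli correlated at 0.738, a description over genes that share libraries.

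**Figure D2:**
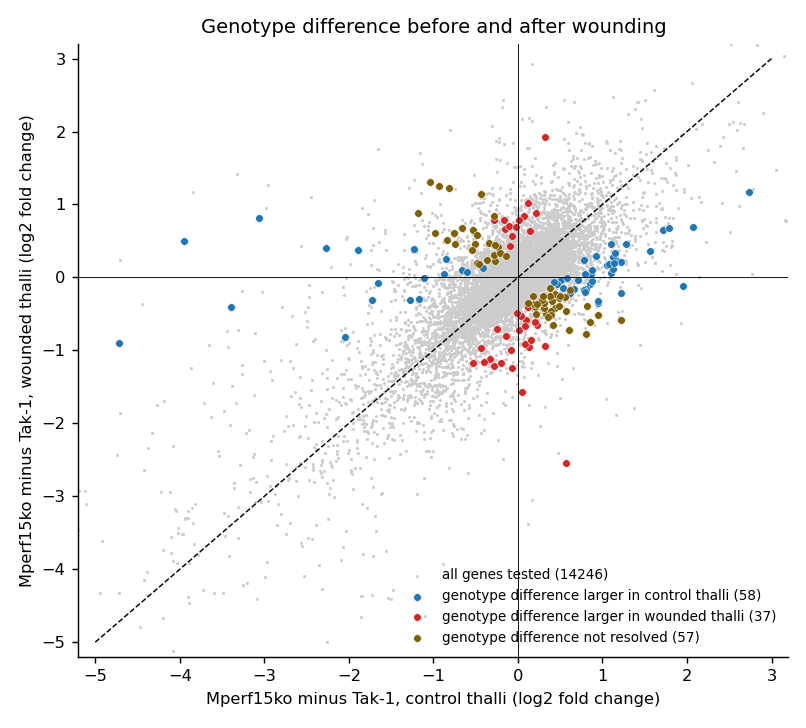
Difference of Mperf15ko from Tak-1 (log2 fold change) in wounded thalli against that in control thalli, with 1 point per tested gene, the called genes coloured by the condition in which the difference was larger, and a dashed line where both are equal; 59 grey genes lie outside the axes. The 58 blue genes spread along the horizontal axis and the 37 red genes along the vertical axis. The 57 unresolved genes fill the quadrants where the sign turned over, which follows from the rule of their class.

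In the largest group, 39 genes with a lower interaction, Mperf15ko thalli held more transcript before wounding and, at the median, ended near the level of Tak-1. The medians of these 39 were 0.95 for the genotype difference in control thalli and 0.066 in wounded thalli, with wound responses of 1.29 in Tak-1 and 0.38 in Mperf15ko. MpPLATZ2 (Mp1g07250), of a plant-specific family of zinc-dependent DNA-binding proteins, had 49.6, 50.5 and 47.0 CPM in Tak-1 control thalli and 106, 123 and 132 in wounded ones. In Mperf15ko it had 86.2, 110.5 and 88.0 CPM in control thalli and 80.8, 112 and 89.3 in wounded ones. Every Mperf15ko control library lay above every Tak-1 control library, wounding left the Mperf15ko range overlapping, and the interaction was -1.31 (SE 0.18, edgeR adjusted p = 0.0041).

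MpHD6 (Mp1g11660) was also higher in Mperf15ko before wounding but, unlike MpPLATZ2, rose after wounding in both genotypes. Its libraries held 59.8, 62.1 and 62.8 CPM in Tak-1 control thalli and 88.5, 108 and 105 in Mperf15ko control thalli. After wounding they held 136, 141 and 139 CPM in Tak-1 and 124, 143 and 138 in Mperf15ko. The genotypes overlapped after wounding but not before it (interaction -0.75, SE 0.12, edgeR adjusted p = 0.0098).

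MpPOD26 (Mp3g15330), a class III peroxidase of the kind that oxidises phenolic compounds in cell walls, was higher in Mperf15ko in both conditions. It had 7.58, 7.69 and 6.18 CPM in Tak-1 control and 19.3, 26.2 and 25.1 in Mperf15ko control thalli. Wounded thalli had 23.5, 23.3 and 26.9 CPM in Tak-1 and 40.7, 39.0 and 35.7 in Mperf15ko. The control level of Mperf15ko was close to the wounded level of Tak-1, the genotype difference fell from 1.72 to 0.65, and the interaction was -1.07 (edgeR adjusted p = 0.012). Mp3g14320, which has no symbol here, had the largest control difference of the 39, with 9.91 ± 2.05 CPM in Tak-1 and 65.5 ± 13.5 in Mperf15ko (SD, n = 3), a log2 difference of 2.73 that was 1.17 after wounding.

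The other genes of this class that the naming rule took were Mp8g03170 (-1.03), Mp4g10510 (-0.95), Mp2g11820 (-1.27) and Mp5g02750 (-0.83), each with its interaction in brackets. Mp5g02750 was not induced: it stayed between 40.4 and 51.8 CPM in all Tak-1 libraries and fell in Mperf15ko from 63.1, 70.0 and 73.0 to 40.5, 43.8 and 40.0 CPM, which lay within or just below the Tak-1 range. All 4 were called in each of the 19 alternative analyses, as were MpPLATZ2, MpHD6, MpPOD26 and Mp3g14320.

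MpCKX1 (Mp5g03090), a cytokinin oxidase gene of the family that breaks down the hormone cytokinin, belongs to the same class and was singled out after its values were seen. It had 14.9, 18.4 and 16.2 CPM in Mperf15ko control thalli against 3.74, 4.50 and 3.55 in Tak-1 control thalli. After wounding it had 4.56, 5.71 and 8.08 CPM in Mperf15ko and 3.22, 4.04 and 4.10 in Tak-1. Wounding lowered it in Mperf15ko (-1.43) while the Tak-1 ranges overlapped (-0.043), giving an interaction of -1.39 (edgeR adjusted p = 0.032). That call was lost without Mperf15ko control replicate 2 or 3, Tak-1 control replicate 1 or 3, or Tak-1 wounded replicate 2 or 3, with values from -1.68 to -1.25 over the 12 fits that each left out 1 library. Ranges in brackets after such lists of libraries are over those 12 fits.

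In 19 genes with a higher interaction the reverse held: Mperf15ko control thalli had less transcript, and at the median the genotypes were close after wounding. Their median genotype difference was -1.28 in control thalli and 0.049 in wounded thalli, and their median wound responses were 1.30 in Tak-1 and 2.96 in Mperf15ko. MpLEA-like14 (Mp3g08260), of the late embryogenesis abundant proteins that accumulate in drying cells, had the largest interaction of any called gene at 4.45 (SE 0.45, edgeR adjusted p = 0.00078). It had 3.03, 1.45 and 3.38 CPM in Tak-1 control and 0.125, 0.239 and 0.145 CPM in Mperf15ko control thalli. After wounding it had 89.5, 71.0 and 76.3 CPM in Tak-1 and 98.9, 122 and 114 in Mperf15ko. The groups did not overlap in either condition, but the control level of Mperf15ko rested on 3, 5 and 3 estimated reads.

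MpCYP94-like (Mp2g10330) is named for the CYP94 enzymes, which in Arabidopsis hydroxylate fatty acids and the jasmonate hormone. Control libraries had 1.31, 1.55 and 2.76 CPM in Tak-1 and 0.417, 0.429 and 0.289 in Mperf15ko. Wounded libraries had 19.2, 24.0 and 25.1 CPM in Tak-1 and 27.7, 31.2 and 31.8 in Mperf15ko. The control groups were separate, the genotype difference in wounded thalli did not pass the test (0.41, edgeR adjusted p = 0.11), and the interaction was 2.67 (edgeR adjusted p = 0.0048).

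MpPR15c (Mp2g01620), of the PR-15 group of germin-like proteins, was lower in Mperf15ko both before and after wounding. It had 3.06, 4.46 and 7.43 CPM in Tak-1 control thalli against 0.292, 0.0954 and 0.145 in Mperf15ko, the latter from 7, 2 and 3 estimated reads. Wounded thalli had 39.1, 40.1 and 37.9 CPM in Tak-1 and 17.5, 26.1 and 18.9 in Mperf15ko. The genotype difference shrank from -4.71 to -0.90, so that the larger fold induction in Mperf15ko (interaction 3.81, edgeR adjusted p = 0.0089) ended at a lower level.

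The peroxidase MpPOD18 (Mp2g20950) had 0.959, 1.05 and 0.531 CPM in Mperf15ko control thalli against 2.87, 4.08 and 2.59 in Tak-1, and after wounding 6.78, 9.25 and 10.4 against 7.25, 5.16 and 8.04, where the genotypes overlapped (interaction 2.26, edgeR adjusted p = 0.014). Mp8g02140 was an abundant member, with 86.4 ± 4.23 and 54.5 ± 3.02 CPM in Tak-1 and Mperf15ko control thalli (SD, n = 3) and an interaction of 0.77. Mp2g20580 had 1, 1 and 0 reads in the Mperf15ko control libraries and 9, 5 and 9 in those of Tak-1, too few for a fold change. In wounded thalli it had 103, 102 and 107 reads in Tak-1 and 143, 139 and 186 in Mperf15ko.

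Mp5g01360 was also called higher (0.87), but its value is uncertain, since its estimated reads could not be assigned to it alone. Its call was lost with limma-voom (0.84) and without Tak-1 wounded replicate 2 (0.83) or 3 (0.84) or Mperf15ko wounded replicate 3 (0.78). MpLEA-like42 (Mp6g03090, 1.58) rose from 1.63 ± 0.260 to 29.0 ± 0.817 CPM across Tak-1 libraries, against 0.520 ± 0.266 to 27.6 ± 4.21 CPM across those of Mperf15ko (SD, n = 3). That call was kept without Tak-1 control replicate 2, Mperf15ko control replicate 2 or Mperf15ko wounded replicate 2 or 3, and lost without any 1 of the other 8 libraries (1.27 to 1.98), with limma-voom and with the replicate block.

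Genes with a larger genotype difference after wounding were led by weaker inductions in Mperf15ko. Among the 24 of them with a lower interaction, 22 were induced less in Mperf15ko. In these 24 genes the genotypes had a median difference of 0.02 in control thalli and -0.93 in wounded thalli, with median wound responses of 1.09 in Tak-1 and 0.30 in Mperf15ko. MpRLK-Pelle_L-LEC28 (Mp6g14550), a receptor-like kinase of the lectin type that sits at the cell surface, had the most negative interaction of all called genes. It had 2.84, 2.67 and 2.42 CPM in Tak-1 control thalli and 29.7, 34.98 and 38.8 in wounded ones. In Mperf15ko it had 4.25, 3.01 and 4.53 CPM in control and 6.96, 4.70 and 6.09 in wounded thalli. Wounded Tak-1 libraries lay far above all the others, and the log2 response was 3.70 in Tak-1 against 0.58 in Mperf15ko (interaction -3.12, SE 0.26, edgeR adjusted p = 0.00011). Every Mperf15ko control library lay above every Tak-1 control library, so the order of the genotypes turned over and the control level added to the interaction.

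MpGT8.8 (Mp4g01290), a family 8 glycosyltransferase, had 32.8, 37.8 and 33.8 CPM in Tak-1 control and 30.1, 38.5 and 39.2 in Mperf15ko control thalli. Wounding took it to 118, 139.8 and 137 CPM in Tak-1 and to 48.9, 44.6 and 39.3 in Mperf15ko. The control groups overlapped and the wounded groups did not (interaction -1.62, SE 0.16, edgeR adjusted p = 0.00038).

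MpCYP97A35 (Mp4g11500) carries the name of the CYP97A enzymes, which in Arabidopsis hydroxylate carotenoids. Its control level was 114 ± 5.04 CPM in Tak-1 and 125 ± 5.31 in Mperf15ko (SD, n = 3). Wounded libraries had 266, 287 and 284 CPM in Tak-1 and 149.9, 142 and 142 in Mperf15ko. The spread within a group was small beside this gap, and the interaction of -1.08 had an SE of 0.10 (edgeR adjusted p = 0.00014).

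MpMAPKKK10 (Mp4g08320), of the kinases at the head of MAP kinase cascades, was induced in both genotypes and less in Mperf15ko. It rose from 8.89, 9.57 and 7.81 to 51.1, 68.4 and 67.3 CPM across Tak-1 libraries, against 9.67, 11.2 and 11.9 to 32.4, 31.7 and 33.5 CPM across those of Mperf15ko. The wounded groups were separate, the difference in control thalli did not pass the test (0.31, edgeR adjusted p = 0.08), and the interaction was -1.25. Mp5g17910 (-0.97), Mp2g11670 (-0.87), Mp4g16940 (-1.17) and Mp7g04070 (-0.73), with interactions in brackets, were likewise induced less in Mperf15ko and have no symbol here. These 8 calls were kept in all 19 alternatives.

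A pair of further members was chosen after their values were seen. MpABCC11 (Mp5g13190), an ABC transporter of subfamily C, rose from 26.6 ± 2.21 to 61.3 ± 8.46 CPM across Tak-1 libraries, against 21.9 ± 2.44 to 26.3 ± 0.871 CPM across those of Mperf15ko (SD, n = 3), with an interaction of -0.94 that was kept in all 19 alternatives. MpADT4 (Mp8g09370), named as an arogenate dehydratase of phenylalanine synthesis, reached 159, 178 and 178 CPM in wounded Tak-1 and 91.9, 85.3 and 86.4 in wounded Mperf15ko (interaction -0.53). The gap in wounded thalli was larger than the interaction on the log2 scale, so MpADT4 was already lower in Mperf15ko before wounding. The call of MpADT4 was lost without Tak-1 control replicate 1 or 2 or Tak-1 wounded replicate 2 or 3 (-0.62 to -0.49), and with the replicate block.

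A stronger induction in Mperf15ko that parted the genotypes after wounding was seen in fewer genes, 9 of 13 with a higher interaction. The 13 genes with a higher interaction and the larger difference in wounded thalli had median genotype differences of -0.027 in control and 0.785 in wounded thalli. Mp2g15380 had 199, 225 and 216 CPM in wounded Tak-1 and 362, 312 and 340.4 in wounded Mperf15ko, from control levels of 52.4 ± 2.13 and 47.0 ± 2.01 CPM (SD, n = 3). MpABCB6 (Mp1g26440), an ABC transporter of subfamily B, to which auxin transporters of other plants belong, had 30.5, 25.9 and 25.4 CPM in Tak-1 control and 23.0, 24.8 and 19.4 in Mperf15ko control thalli. After wounding it had 47.1, 60.3 and 62.3 CPM in Tak-1 and 104, 105 and 84.9 in Mperf15ko. Both genes were separate between genotypes in wounded thalli, with interactions of 0.82 (edgeR adjusted p = 0.0041) and 1.08 (edgeR adjusted p = 0.012), and they were the 2 of the 13 whose call was kept in every alternative.

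MpABCB10 (Mp7g04390), of the same subfamily, had 53.6 ± 5.44 CPM in wounded Tak-1 and 108 ± 9.16 in wounded Mperf15ko (SD, n = 3; interaction 0.90). The call was lost without Tak-1 control replicate 2, Mperf15ko control replicate 3, Tak-1 wounded replicate 1 or 2, or Mperf15ko wounded replicate 3 (0.76 to 0.97). Mp4g02090 (0.82) lost its call without Tak-1 wounded replicate 3 (0.75). Mp1g24790 (0.71) lost it without Mperf15ko control replicate 2 or 3, Tak-1 wounded replicate 1 or 2, or Mperf15ko wounded replicate 3 (0.60 to 0.75). Mp5g18240 (1.60) lost it without Tak-1 control replicate 1 or 2, Mperf15ko control replicate 3 or Tak-1 wounded replicate 2 or 3 (1.44 to 1.74), and with limma-voom (1.65). These 4 genes kept their sign in every alternative. Mp6g19380 (0.96) lost its call without any library other than Mperf15ko control replicate 1 and Mperf15ko wounded replicate 1 (0.81 to 1.04), and Mp5g04350 (0.76) without any other than Mperf15ko control replicate 1 or 2 or Mperf15ko wounded replicate 2 (0.61 to 0.81). The replicate block also ended both calls.

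**Figure D3:**
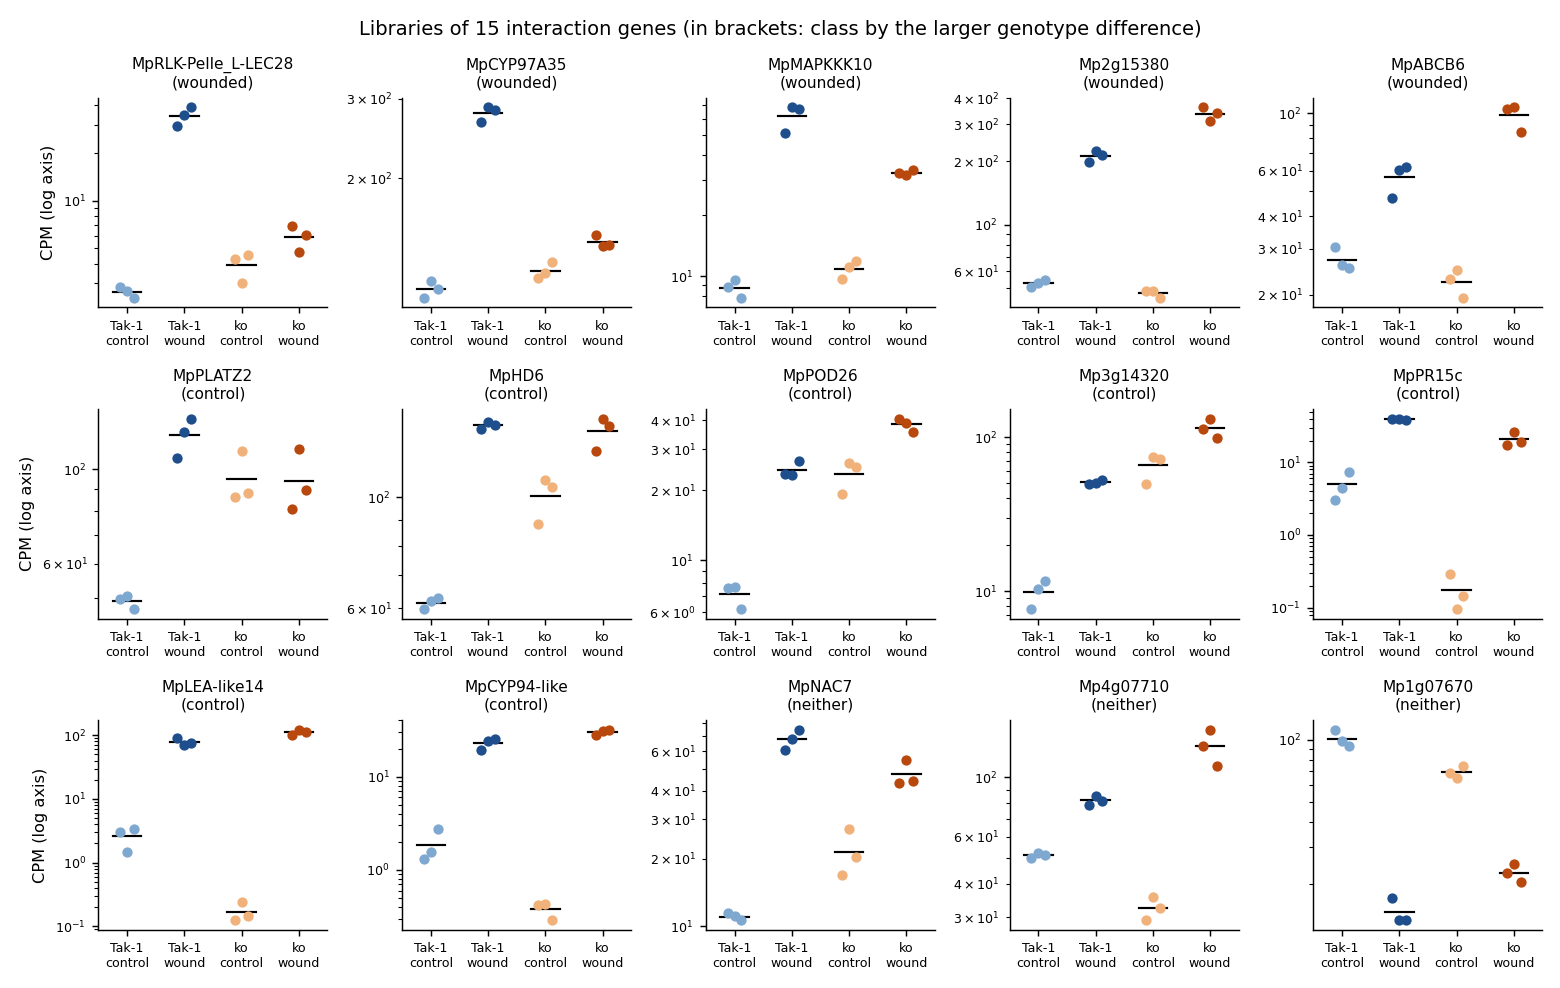
CPM on a log axis in each of the 12 libraries for 15 called genes, with 1 point per library and a bar at the mean of its group; the bracket gives the condition with the larger genotype difference. MpRLK-Pelle_L-LEC28 to MpABCB6 differ more after wounding, MpPLATZ2 to MpCYP94-like differ more before wounding, and MpNAC7, Mp4g07710 and Mp1g07670 change the order of the genotypes.

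For the 57 genes with neither level resolved, the genotype difference had opposite signs in control and wounded thalli. That turn of sign follows from the rule of the class and is no separate result. A called interaction with a mean genotype difference too small to be called leaves differences of opposite sign. In 25 genes the median difference went from -0.49 to 0.48, and in 32 genes from 0.40 to -0.39. MpNAC7 (Mp6g02620), a NAC transcription factor, had 11.4, 11.1 and 10.6 CPM in Tak-1 control and 16.9, 27.1 and 20.3 in Mperf15ko control thalli. Wounded thalli had 60.9, 67.8 and 74.9 CPM in Tak-1 and 43.4, 55.0 and 44.4 in Mperf15ko. Every library of Mperf15ko lay above Tak-1 before wounding and below it afterwards, with an interaction of -1.46 (SE 0.21, edgeR adjusted p = 0.0069).

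Mp4g07710 ran the other way, with 50.03, 52.3 and 51.4 CPM in Tak-1 control and 29.3, 35.6 and 32.4 in Mperf15ko control thalli. After wounding it had 78.6, 85.4 and 81.9 CPM in Tak-1 and 131, 151 and 110.2 in Mperf15ko. Its differences of -0.66 and 0.67 were nearly equal in size, and the interaction was 1.33 (edgeR adjusted p = 0.00079). Mp1g07670 was repressed in both genotypes: it fell from 112, 97.9 and 92.8 to 17.02, 13.3 and 13.3 CPM across Tak-1 libraries, against 69.1, 65.4 and 74.6 to 22.5, 24.9 and 20.4 CPM across those of Mperf15ko. The fall was larger in Tak-1, and no groups overlapped (interaction 1.18, edgeR adjusted p = 0.0041).

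Mp5g07510 (2.35), Mp2g11980 (0.83), Mp2g01500 (-1.79), Mp3g00500 (-1.21) and Mp5g08380 (-0.83), with interactions in brackets, crossed in the same manner and were called in every alternative, as were MpNAC7, Mp4g07710 and Mp1g07670. Mp3g00500 had one of the steeper courses, from 12.0 ± 1.28 to 156 ± 0.662 CPM across Tak-1 libraries, against 21.2 ± 3.93 to 118 ± 16.3 CPM across those of Mperf15ko (SD, n = 3). Mp2g01500 rose in Tak-1 from 14.3, 20.5 and 18.5 to 58.3, 75.4 and 68.5 CPM, while its Mperf15ko libraries went from 28.2, 47.1 and 48.3 to 40.5, 46.0 and 49.0 and overlapped.

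In all, 6 genes responded in opposite directions, with both wound responses called. Mp2g16990 fell in Tak-1 from 12.7, 17.2 and 14.5 to 8.66, 7.75 and 7.03 CPM and rose in Mperf15ko from 7.59, 4.68 and 6.66 to 11.3, 11.2 and 8.14 CPM (interaction 1.61, edgeR adjusted p = 0.012), and this call was kept in every alternative. The other 5 had small changes. MpRAB8B (Mp7g06380), a small GTPase of the Rab family that directs vesicle traffic, rose in Tak-1 (0.30) and fell in Mperf15ko (-0.41), and its interaction of -0.71 was not called without Mperf15ko control replicate 3 or Tak-1 wounded replicate 2 or 3 (-0.80 to -0.67). MpLEA-like33 (Mp5g22700) rose in Tak-1 (0.34) and fell in Mperf15ko (-0.30), and its interaction of -0.64 was not called without Tak-1 control replicate 2, Mperf15ko control replicate 3 or Tak-1 wounded replicate 2 or 3 (-0.80 to -0.60).

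The 3 remaining genes of opposite direction rested on more libraries. Mp4g15480 (0.72) lost its call without any library other than Tak-1 control replicate 1, Mperf15ko control replicate 1, Tak-1 wounded replicate 2 and Mperf15ko wounded replicates 2 and 3 (0.62 to 0.75). Mp7g15020 (-0.67) lost it without any other than Tak-1 control replicate 2, Mperf15ko control replicate 1, Tak-1 wounded replicate 1 and Mperf15ko wounded replicates 2 and 3 (-0.80 to -0.67). MpRBM7 (Mp1g13100, 0.64), named for an RNA-binding motif, lost it with no filter on low counts, with the replicate block and without any library other than Mperf15ko wounded replicate 2 (0.56 to 0.66).

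No gene was called among the tested genes of oxylipin synthesis and perception, the pathway that the series sets beside this factor. They were picked by the symbols LOX, CYP74, MpJAZ and MpCOI1 and do not cover the pathway. Of 15 tested lipoxygenases, 2 CYP74 genes and the pair MpJAZ and MpCOI1, none was called by the interaction in edgeR, against 1.07% of all genes, and 1 of the lipoxygenases had an unadjusted p under 0.05. That gene was MpLOX2 (Mp2g23380), with 116, 114 and 130.04 CPM in Tak-1 control and 613, 722 and 689 in wounded Tak-1 thalli, and 127, 101 and 117 CPM in Mperf15ko control and 888, 769 and 942 in wounded Mperf15ko thalli. It was induced in both genotypes, its wounded libraries were higher in Mperf15ko, and its interaction was 0.42 (95% interval 0.11 to 0.74, edgeR adjusted p = 0.22).

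MpLOX1 differed between the genotypes by a similar amount before and after wounding. It had 14.6, 15.5 and 19.4 CPM in Tak-1 control and 4.42, 4.53 and 5.02 in Mperf15ko control thalli. Wounded thalli had 85.9, 128 and 96.8 CPM in Tak-1 and 22.1, 25.7 and 27.01 in Mperf15ko. The lower level in Mperf15ko was called in both conditions (-1.82 and -2.06), the fold induction was 2.65 against 2.42 on the log2 scale, and the interaction of -0.23 had an interval of -0.71 to 0.24.

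MpLOX4 repeated that pattern, with genotype differences of -1.29 in control and -1.02 in wounded thalli and an interaction of 0.27 (interval -0.41 to 0.94). MpLOX11 had genotype differences of -2.12 in control thalli and -1.71 in wounded thalli, both called, with an interaction of 0.40 (-0.25 to 1.05). These intervals still allow a difference between the responses, and for weakly expressed members such as MpLOX6 the interval ran from -2.93 to 1.52.

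The CYP74 gene MpCYP74N2 (Mp5g16260) had 109, 194 and 185 CPM in wounded Tak-1 and 85.5, 80.8 and 128 in wounded Mperf15ko, where the groups overlapped, and an interaction of -0.48 (-1.19 to 0.23). MpJAZ, the repressor that oxylipin signalling itself induces, had 134, 149 and 148 CPM in wounded Tak-1 and 158, 153 and 177 in wounded Mperf15ko. From control means of 25.8 ± 2.27 and 26.6 ± 0.635 CPM (SD, n = 3), its responses were 2.48 and 2.61, and the interval of the interaction, -0.12 to 0.39, was among the narrowest of these genes. MpCOI1, the receptor, had an interaction of -0.20 (-0.47 to 0.079).

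**Figure D4:**
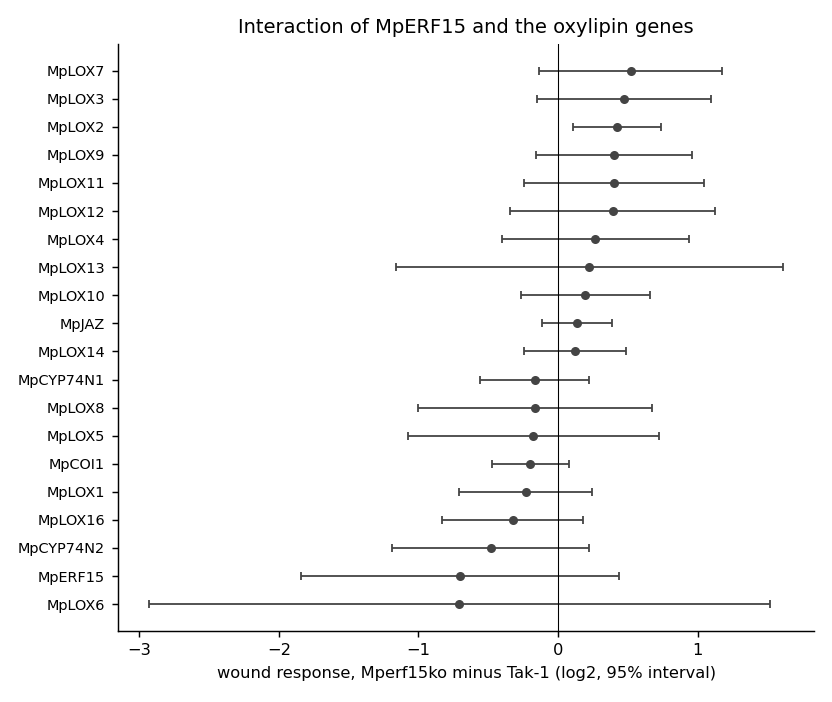
Interaction (wound response in Mperf15ko minus that in Tak-1, log2) of MpERF15 and the 19 tested oxylipin genes, with points at the fitted value and bars for the 95% interval. The interval of MpLOX2 lies above 0 before adjustment (0.11 to 0.74), and the other intervals include 0.

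By gene family, calls were scattered. Of 36 families taken from the gene symbols, 10 held a called member and 26 held none, with 16 of 1036 family memberships called against 1.07% of all genes. Class III peroxidases had 3 called of 122 tested, namely MpPOD26, MpPOD18 and MpPOD169. Cytochrome P450 genes other than CYP74 had 3 of 91, namely MpCYP97A35, MpCYP94-like and MpCYP814-like, and late embryogenesis abundant genes had 3 of 62, namely the 3 given above. In each of these 3 families the called members differed in sign. An unadjusted p under 0.05 was found in edgeR for 8 of the peroxidases, 15 of the P450 genes and 13 of the late embryogenesis abundant genes. Their family medians were 0.049, 0.0089 and 0.10. In the last family, interactions of uncalled members ran from -1.02 (MpLEA-like15) to 5.78 (MpLEA2). The families were not tested as sets.

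Single calls came from the NAC, AP2/ERF, PP2C, MAPKKK, receptor-like kinase and dioxygenase (DOXC) families, all lower in Mperf15ko, and from the terpene synthases, higher. Over all tested genes 1.07% were called and 12.0% had an unadjusted p under 0.05, and 1 call in a family is a value of that gene and not of the family. NAC factors had the lowest family median, -0.51 over 8 tested genes against 0.024 over all genes, with 5 of the 8 at an unadjusted p under 0.05 and MpNAC7 called. Dirigent genes, whose products guide the coupling of phenolic radicals, had the highest median, 0.33 over 51 genes, with 11 at an unadjusted p under 0.05 and none called in edgeR. No gene was called in edgeR among chalcone synthase-type polyketide synthases (0 of 21 called, 5 at an unadjusted p under 0.05) or polyphenol oxidases (0 of 42, 6). The same held for WRKY factors (0 of 13, 3), MYB factors (0 of 42, 7), bHLH factors (0 of 37, 5) and bZIP factors (0 of 13, 4). It also held for genes with a cupin symbol (0 of 46, 7), glutathione transferases (0 of 33, 7) and expansins (0 of 36, 4). The called germin-like gene MpPR15c carries another symbol and was not counted with the cupins. The share at an unadjusted p under 0.05 was close to that of all genes in the polyphenol oxidases, bHLH factors and expansins, and the differences of the other families from it were not tested.

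The remaining families without a call in edgeR were fatty acid desaturases (12 tested), phenylalanine ammonia-lyases (8), DFR-like genes (18), UGT (30), OMT (13), PR1 (15), chitinases (21), thaumatins (3), abscisic acid genes (7), auxin genes (17), ABCG transporters (31), XTH and GH16 genes (26) and MCM helicases (9). Each had from 0 to 6 members at an unadjusted p under 0.05.

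MpERF1 (Mp1g20040), of the same AP2/ERF family as MpERF15, had 37.0, 33.2 and 25.9 CPM in Tak-1 control and 39.0, 52.2 and 52.1 in Mperf15ko control thalli. Wounding took it to 81.3, 108 and 117 CPM in Tak-1 and to 73.9, 72.5 and 76.8 in Mperf15ko. The genotypes did not overlap in either condition, with Mperf15ko higher before wounding and lower after it, and the interaction was -1.03 (edgeR adjusted p = 0.042). It is one of the less settled calls: without any library other than Tak-1 control replicate 1, Mperf15ko control replicate 1 and Tak-1 wounded replicate 1 it was lost (-1.21 to -0.94), as it was with limma-voom and with the replicate block.

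MpPP2C_F3 (Mp4g14730), a protein phosphatase of the 2C type, was strongly induced in both genotypes, from 9.76 ± 1.65 to 135 ± 8.82 CPM across Tak-1 libraries, against 22.6 ± 4.39 to 157 ± 13.1 CPM across those of Mperf15ko (SD, n = 3). Its interaction of -1.003 came from a higher control level in Mperf15ko and was not called without Tak-1 control replicate 1, Mperf15ko control replicate 3 or Tak-1 wounded replicate 2 or 3 (-1.19 to -0.86). MpPOD169 (Mp8g16260, -1.47) was not called without Mperf15ko control replicate 3 or Tak-1 wounded replicate 2 or 3 (-1.79 to -1.34). The terpene synthase-like gene MpFTPSL2 (Mp6g04320, 1.07) rose in Mperf15ko (1.31) and had 0.25 in Tak-1, and was not called without Tak-1 control replicate 1 or 2, Mperf15ko control replicate 3, Tak-1 wounded replicate 1 or 3 or Mperf15ko wounded replicate 3 (0.92 to 1.201).

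MpCYP814-like (Mp6g02020, -1.001) lost its call without any library other than Tak-1 control replicate 3, Mperf15ko control replicates 1 and 2 and Mperf15ko wounded replicate 2 (-1.14 to -0.88), and with the replicate block. MpDOXC3 (Mp1g12420, -1.32) lost it without Tak-1 control replicate 1 or 2, Mperf15ko control replicate 3, any wounded Tak-1 library or Mperf15ko wounded replicate 1 (-1.51 to -1.13). Both had a higher response in Tak-1, 1.06 against 0.063 and 0.95 against -0.38 on the log2 scale.

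**Figure D5:**
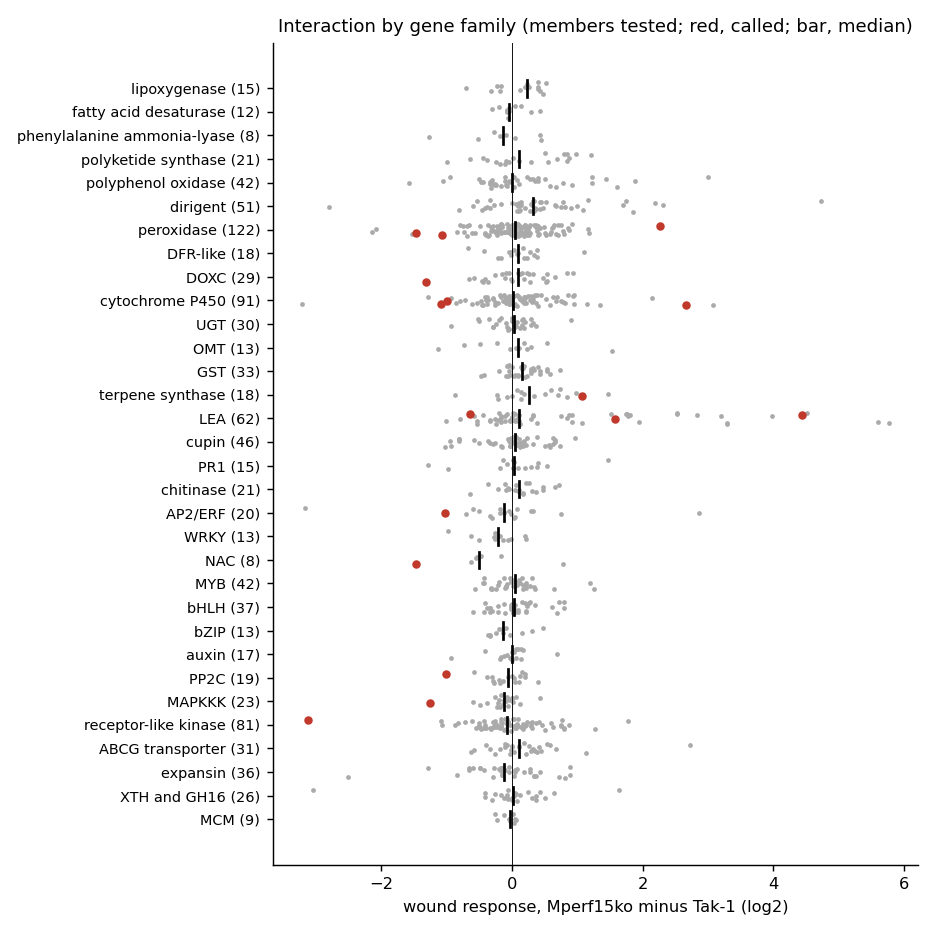
Interaction (log2) of each tested member of the families with 8 or more tested genes, with the number tested in brackets, called members in red and a bar at the family median. Medians stay between -0.51 (NAC) and 0.33 (dirigent), and the red points lie on both sides of 0.

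How firmly a call stood is given here by class. Of the 152 genes, 53 were called in all 19 alternatives: 19 of the 58 with the larger difference in control thalli, 13 of the 24 with a lower interaction and the larger difference in wounded thalli, 2 of the 13 with a higher interaction there, and 19 of the 57 unresolved genes. All 152 kept the sign of the interaction in every alternative, and none that stayed called moved between the control and the wounded class. The number called moved furthest with DESeq2, to 472, and among the fits without 1 library it was 324 without Mperf15ko control replicate 1, 73 without Mperf15ko control replicate 3, 61 without Tak-1 wounded replicate 2, 65 without Tak-1 wounded replicate 3 and 101 without Tak-1 control replicate 2.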

How the data were processed

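RNA of 12 thallus libraries was sequenced from a stranded mRNA kit, per the labels' protocols. Per the file headers, each deposited file is a Salmon table with an estimated count and a TPM value per transcript, for 24751 transcripts. Deposited TPM values had an equal total in each library and served for that check alone. CASAVA and Salmon 0.7.2 appear, without roles, in the submitters' processing notes. The annotation and genome build were not given in the sources used here.

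The authors' expected counts were added up per gene (19421 genes) and rounded to whole numbers. edgeR 4.0.16 in R 4.3.3 (filterByExpr by group, TMM, robust glmQLFit, glmQLFTest) was fitted to the 4 groups over all 12 libraries without a covariate. The fit was also run on counts simulated from its own estimates of spread, with changes placed only in genes above a floor of expression. That run is no check of calls that rest on a few reads. The common biological coefficient of variation was 0.126. Intervals are at 95%. Replicates are labelled as biological, and none was found to hold the same library (chi-square per gene of 15.6 to 63.1). Alternatives used DESeq2 1.42.0 and limma 3.58.1 (voom), other scalings and filters, a replicate block, and each library left out.

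Of the gene IDs, 17386 (89.5%) matched the RefSeq gene table of assembly MpTak2_v7.1, which gave 3091 symbols and no coordinates here. Families were taken from symbols and are not a census. Named genes were MpERF15, the tested oxylipin genes, up to 8 called genes of lowest p per level class and sign, up to 4 per sign where no level was resolved, 6 of opposite direction, and up to 4 called per family. Members, families and rules were chosen with earlier results of these data known. A called gene is not reported here.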

Additional observations from a re-analysis of the deposited data

Results flagged for a closer look

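Each gene here had a wound response that differed between Mperf15ko and Tak-1 by the test of the difference itself, the edgeR interaction, which called 152 genes. Values are log2, Mperf15ko minus Tak-1, for the called genes named above, and their causes were not tested.

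Responses in opposite directions were measured for Mp2g16990 (1.61), MpRAB8B (-0.71), Mp4g15480 (0.72), MpLEA-like33 (-0.64), Mp7g15020 (-0.67) and MpRBM7 (0.64).

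With the larger genotype difference in wounded thalli, the value was negative for MpRLK-Pelle_L-LEC28 (-3.12), MpCYP97A35 (-1.08), MpGT8.8 (-1.62), MpMAPKKK10 (-1.25), Mp5g17910 (-0.97), Mp2g11670 (-0.87), Mp4g16940 (-1.17) and Mp7g04070 (-0.73). It was positive for Mp2g15380 (0.82), MpABCB6 (1.08), Mp4g02090 (0.82), Mp1g24790 (0.71), Mp5g18240 (1.60), MpABCB10 (0.90), Mp6g19380 (0.96) and Mp5g04350 (0.76).

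With the larger difference in control thalli, the value was negative for MpPLATZ2 (-1.31), Mp8g03170 (-1.03), MpHD6 (-0.75), Mp3g14320 (-1.56), Mp4g10510 (-0.95), Mp5g02750 (-0.83), MpPOD26 (-1.07), Mp2g11820 (-1.27), MpPP2C_F3 (-1.003) and MpCYP814-like (-1.001). It was positive for MpLEA-like14 (4.45), Mp8g02140 (0.77), MpCYP94-like (2.67), MpPR15c (3.81), MpPOD18 (2.26), Mp5g01360 (0.87) and MpLEA-like42 (1.58). The fitted value of Mp2g20580 (3.88) rests on 2 reads over the Mperf15ko control libraries, depends on the prior count of the fit, and is no bound.

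With neither level resolved, the values were 1.33 for Mp4g07710, 0.83 for Mp2g11980, 1.18 for Mp1g07670, 2.35 for Mp5g07510 and 1.07 for MpFTPSL2. They were -1.46 for MpNAC7, -1.21 for Mp3g00500, -0.83 for Mp5g08380, -1.79 for Mp2g01500, -1.03 for MpERF1, -1.32 for MpDOXC3 and -1.47 for MpPOD169. Groups of 3 libraries are too small for a check of single stray samples.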

How the results depend on the processing

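The number of calls depended on the tool and on single libraries more than on scaling. The count of 152 was 155 with DESeq2 size factors, 157 with upper quartile scaling, 191 with no filter on low counts, 150 with a CPM of at least 1 in 3 libraries and 122 with limma-voom. With DESeq2 it was 472, with 195 higher, 277 lower, 191 with the larger genotype difference in control thalli, 105 with the larger difference in wounded thalli, 176 not resolved, 237 smaller responses, 172 larger responses and 14 of opposite direction. Upper quartile scaling gave 12 of opposite direction. Replicate numbers did not pair the libraries: deviations of same-numbered libraries correlated at -0.313 to 0.225, those of other numbers at -0.305 to 0.363, and 4 of 12 libraries were closest to their own number. The fit with the replicate block called 130, with 24 of larger difference in wounded thalli.

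Leaving out 1 library moved the calls to between 61 and 324, the higher ones to 19 to 76 and the lower ones to 39 to 248. Genes with the larger difference in control thalli numbered 20 to 186, those in wounded thalli 16 to 40 and those not resolved 23 to 98. Smaller responses numbered 38 to 207, larger ones 20 to 85 and opposite ones 1 to 15. Of 1368 values of named genes recomputed, 1232 kept their direction and side of the threshold, 126 lost the call and 10 turned sign, all 10 in lipoxygenases that were not called. MpLOX13 was -0.059 with limma-voom. Without 1 library, MpLOX4 ranged from -0.0089 to 0.43, MpLOX5 from -0.46 to 0.0016, MpLOX6 from -1.27 to 0.15, MpLOX10 from -0.023 to 0.32, MpLOX13 from -0.53 to 0.49 and MpLOX14 from -0.062 to 0.19. The causes were not tested. Depth limits control levels of a few reads, such as those of MpLEA-like14 and MpPR15c in Mperf15ko.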

Other observations

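Among the 152 called genes 3 pairs had IDs at most 20 apart on 1 chromosome, 10 apart for 2 pairs and 20 apart for the third, and the members of each pair had the same sign. The number of pairs to be found among as many genes drawn from all those tested was not taken, so no clustering is read from these 3. Mp1g00550 and Mp1g00560 had interactions of -0.86 and -0.55, Mp4g10510 and Mp4g10520 of -0.95 and -0.83, and Mp1g22370 and Mp1g22390 of 1.12 and 2.18. Of the 19 alternatives, 11 lost the call of Mp1g22370 (10 of them without 1 library), 4 that of Mp1g22390 and 1 that of Mp4g10520, each of these without 1 library. Of the 152 genes 126 had 1 transcript (82.9%), a share like that of all genes in the files, 16390 of 19421. Estimated counts lay within 0.01 of a whole number in every library for 98 of the 152, and the share over all genes was not taken.

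MpSUT4 (Mp7g14140), named as a sucrose transporter and chosen after its values were seen, had few reads in Mperf15ko control thalli, as MpLEA-like14 did. It had 2.53, 1.41 and 4.39 CPM in Tak-1 control and 0.125, 0.286 and 0.386 in Mperf15ko control thalli, the latter from 3, 6 and 8 reads. Wounded thalli had 18.2, 15.5 and 17.3 CPM in Tak-1 and 17.6, 12.1 and 8.91 in Mperf15ko. Its interaction of 2.99 was called in edgeR (adjusted p = 0.039), and the call was kept without Tak-1 control replicate 2 or 3 or Mperf15ko wounded replicate 3 and lost without any 1 of the other 9 libraries (2.49 to 3.31), with limma-voom and with the replicate block.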
